A study of Homo sapiens with 10 samples.

Results

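The mitochondrial ribosomal protein genes described here are the 78 gene symbols of the form *MRPL* or *MRPS* followed by a number and, in some, a letter from A to C. They were taken by symbol alone from the 36687 gene symbols of the deposited tables, and no measured value decided which symbols belong. The family itself was chosen with earlier results of these data known, so no test of the set is given. Of the 78, 49 carry an *MRPL* symbol and 29 an *MRPS* symbol. In the main fit 77 passed the filter on low counts, and *MRPL53* did not.

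RNA was sequenced from MDA-MB-231, an established line of triple-negative breast cancer cells of the mesenchymal-like basal B subtype. Cells were exposed to dasatinib, which inhibits SRC family kinases, at 100 nM for 6, 12, 24 or 48 h, or were left untreated (0 h), with 2 biological replicates each and 10 libraries in all, and all groups are the same parental line. The dose comes from the study's description of the experiment, and the 0 h samples, which are titled sham although the drug is named as their treatment, were used as untreated cells. Untreated cells at 6 to 48 h are not analysed here, so each difference from 0 h includes time in culture, and in bulk RNA fewer cells of a kind and less RNA per cell cannot be told apart.

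The mitochondrial ribosome sits in the mitochondrial matrix and translates the few mRNAs of mitochondrial DNA, which encode core subunits of the respiratory chain and of ATP synthase. All of its proteins are encoded in the nucleus, made on cytosolic ribosomes and imported. Some are homologs of bacterial ribosomal proteins, and others exist only in mitochondria. The symbols do not follow the particle exactly. *MRPS18A* and *MRPS30* encode proteins of the large subunit, *MRPS36* encodes a protein now assigned to the oxoglutarate dehydrogenase complex, and several subunits carry other symbols, such as *DAP3* and *GADD45GIP1*.

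Libraries held between 40942913 and 49133774 gene counts. All 7 basal B markers reached at least 1 TPM (a length-scaled level), with a sum of 2344 to 3387 TPM per library, and none of 4 basal A keratins did. Of 12 luminal markers 7 reached that level, with a sum of 586.4 to 859.1 TPM, and 1 of 8 haematopoietic markers did, with a sum of 0.752 to 4.9 TPM. Replicate 1 at 12 h stood apart. Its best correlation with another library was 0.945 in log2 CPM (counts per 1e6 counts, scaled by TMM), where each other library reached 0.977 to 0.984, and results are therefore given with and without it.

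The median level of the 77 genes stood below that at 0 h at 24 and 48 h of dasatinib, further at 48 h, and at 12 h far below it in replicate 1 and slightly below it in replicate 2. The summed counts of the genes took 0.417% and 0.42% of all counts in the 0 h libraries, 0.458% and 0.449% after 6 h, 0.292% and 0.419% after 12 h, 0.35% and 0.367% after 24 h, and 0.283% and 0.288% after 48 h. On the log2 scale the median gene differed from its 0 h mean by 0.08 and 0.07 in the 6 h libraries, by -0.74 and -0.07 after 12 h, by -0.36 and -0.28 after 24 h, and by -0.58 and -0.61 after 48 h. Replicates thus lay close together at every time but 12 h, where by the median gene replicate 1 lay lower than both 48 h libraries and replicate 2 near 0 h. By the summed share, replicate 1 at 12 h lay just above both 48 h libraries.

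**Figure D1:**
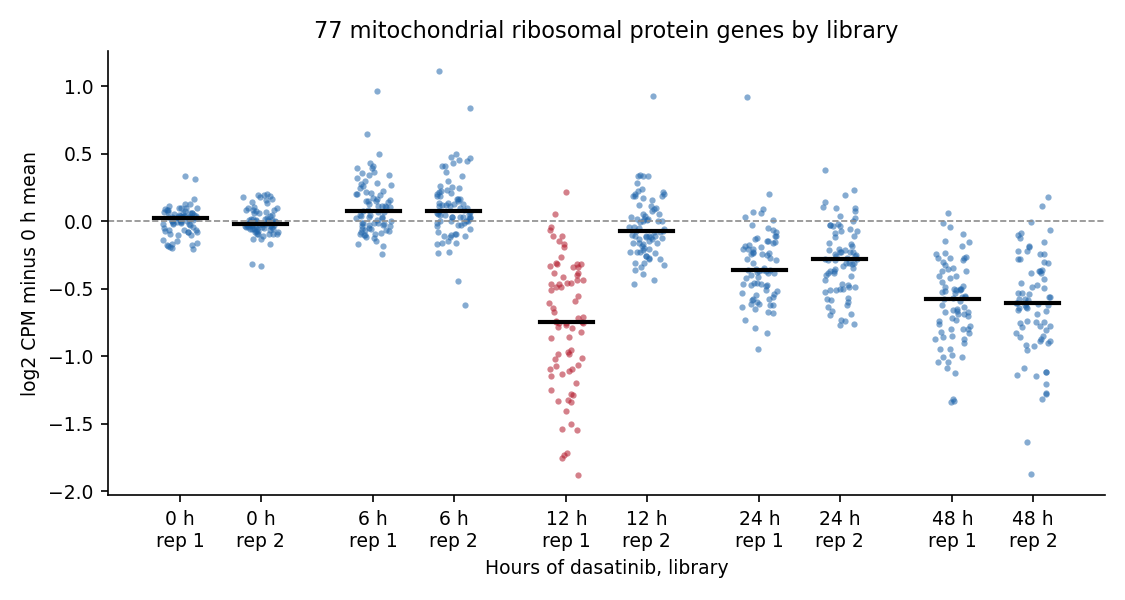
Log2 CPM minus the 0 h mean (vertical axis) of the 77 genes in each of the 10 libraries (horizontal axis, hours of dasatinib and replicate); each point is a gene, the bar is the median and 12 h replicate 1 is in red. Medians are -0.58 and -0.61 in the 48 h libraries, and -0.74 and -0.07 in the 12 h libraries.

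At 48 h of dasatinib, 39 of 77 mitochondrial ribosomal protein genes (50.6%) were lower than at 0 h by edgeR's quasi-likelihood test at an adjusted p of 0.05, and 0 were higher. Among all 15727 genes tested, 16.3% were lower and 16.0% were higher. The median log2 fold change was -0.59 over the 77 genes, a level 33.8% lower, and 0.01 over all genes tested. The estimate was below 0 for 75 of the 77 and for 7759 of the 15727 genes tested. The middle of the 77 lay between -0.80 and -0.41 (the quartiles). Both 48 h libraries lay below both 0 h libraries in 72 of 77 genes and in 37.3% of all genes tested. For the count of 0 higher genes, 0 also passed at an unadjusted p of 0.05, and 0 by DESeq2 or by limma on log2(TPM + 1). The count of 39 lower genes became 48 at an unadjusted p of 0.05, 45 by DESeq2 and 30 by limma on log2(TPM + 1). Counts at an unadjusted p, by DESeq2 or limma, or without a library outside 12 h have no share of all genes beside them, here and below.

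With 12 h replicate 1 left out, 64 of the 77 genes were lower at 48 h, against 26.0% of all genes tested, and all 39 of the first count were among them. The median fold change was -0.60. The same count of 64 was reached with 12 h replicate 2 left out instead, against 25.6% of all genes tested. In either fit the difference between the 12 h libraries no longer enters the shared spread, and the lone 12 h library is taken to vary as the other groups do. Without 1 of the libraries compared, the count was 23 without either 0 h replicate, 20 without 48 h replicate 1 and 18 without 48 h replicate 2, while the median stayed between -0.614 and -0.583 over all libraries left out in turn.

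**Figure D2:**
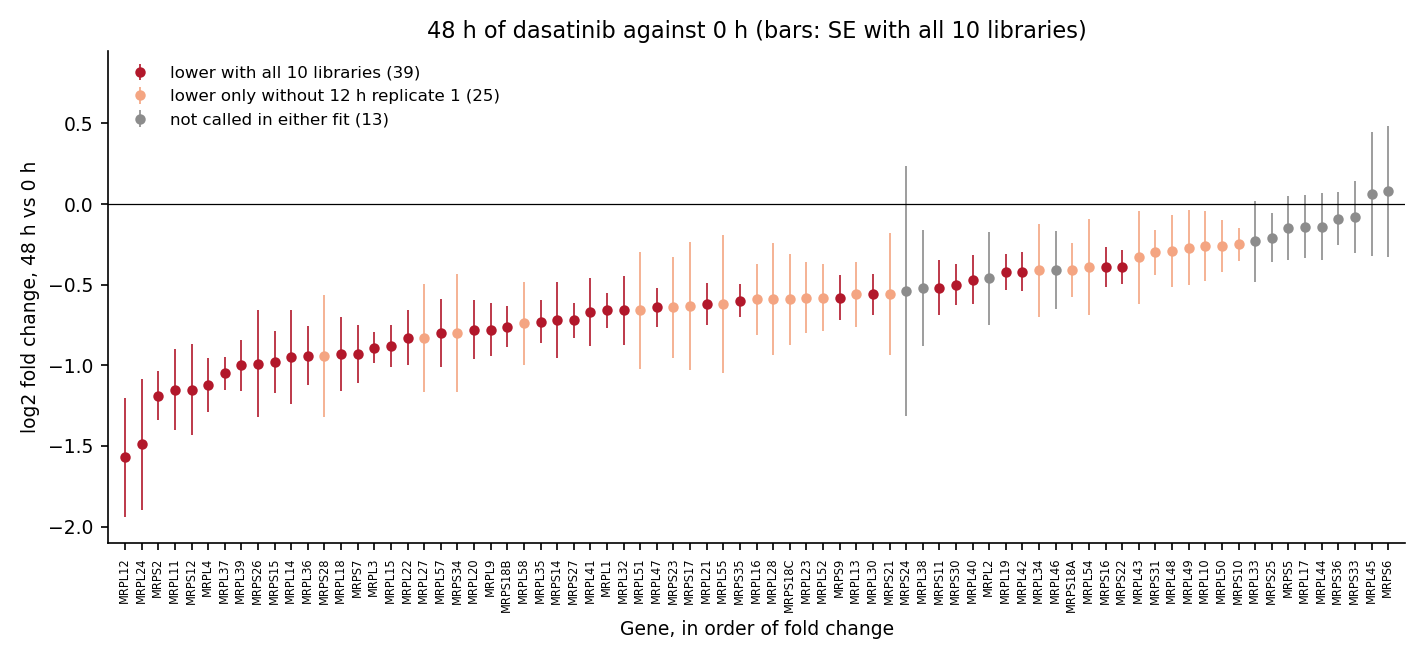
Log2 fold change at 48 h of dasatinib against 0 h (vertical axis) of the 77 genes in order of size; points are estimates and bars the standard error (SE) from all 10 libraries, and the colours give the fits in which a gene was lower. The estimates run from -1.57 (*MRPL12*) to 0.08 (*MRPS6*), with 39 genes lower in the fit of all libraries and 64 without 12 h replicate 1.

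The 6 lowest estimates at 48 h belonged to homologs of bacterial ribosomal proteins, and *MRPL12* was the lowest. *MRPL12* (chr17:81703367-81707517, plus strand; coordinates here are GENCODE v44, GRCh38) encodes the protein of the flexible stalk of the large subunit, which recruits translation factors. Its CPM was 6.37 and 4.33 at 48 h, against 15.2 and 16.7 at 0 h. The log2 fold change was -1.57 (SE 0.368, adjusted p = 0.0087, edgeR). Neither 48 h library reached either 0 h library. Of its exon bases 69.5% lie in another gene model on the same strand, and the neighbouring *SLC25A10*, a mitochondrial dicarboxylate carrier gene, changed alongside it. *SLC25A10* had 3.7 and 2.72 CPM at 48 h, against 9.4 and 9.47 CPM at 0 h (log2 fold change -1.55, SE 0.288, adjusted p = 0.00236, edgeR). How far the reads of this locus are shared between gene models was not tested.

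*MRPL24* and *MRPL4* encode proteins that bind the RNA of the large subunit, and *MRPL11* encodes a protein at the base of the stalk. *MRPL24* (chr1:156737303-156741590, minus strand) had 26.5 and 21.4 CPM at 48 h, against 58.9 and 75.4 at 0 h, a log2 fold change of -1.49 (SE 0.404, adjusted p = 0.0181, edgeR). *MRPL11* (chr11:66435075-66466738, minus strand) had 45.4 and 38.8 CPM at 48 h, against 95.4 and 91.5 at 0 h, a log2 fold change of -1.15 (SE 0.253, adjusted p = 0.00627, edgeR). *MRPL4* (chr19:10251901-10260055, plus strand) had 33.2 and 29.7 CPM at 48 h, against 69.6 and 67.3 at 0 h, a log2 fold change of -1.12 (SE 0.168, adjusted p = 0.000667, edgeR). In all 3 genes the 48 h libraries lay below both 0 h libraries. The 0 h replicates of *MRPL24* lay further apart than those of *MRPL11* or *MRPL4*.

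In the small subunit the lowest estimates were those of *MRPS2* and *MRPS12*, the second of which encodes a protein of the decoding centre. *MRPS2* (chr9:135499984-135504673, plus strand) had 41.8 and 36.7 CPM at 48 h, against 99.8 and 79.0 CPM at 0 h, a log2 fold change of -1.19 (SE 0.152, adjusted p = 0.000259, edgeR). *MRPS12* (chr19:38930944-38933168, plus strand) had 42.6 and 34.5 CPM at 48 h, against 85.9 and 85.6 at 0 h, a log2 fold change of -1.15 (SE 0.282, adjusted p = 0.0107, edgeR). In both genes the 48 h libraries lay below both 0 h libraries. Of these 6 genes, *MRPL12*, *MRPL24*, *MRPL11* and *MRPS12* lost the call without 48 h replicate 2, with log2 fold changes of -1.32, -1.34, -1.04 and -1.01, while *MRPS2* and *MRPL4* kept it without any single library. *MRPL12* also lost it without 0 h replicate 2 (-1.51), *MRPL24* without 0 h replicate 2 (-1.3) or 48 h replicate 1 (-1.65), and *MRPS12* without 0 h replicate 1 (-1.15) or 2 (-1.16).

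**Figure D3:**
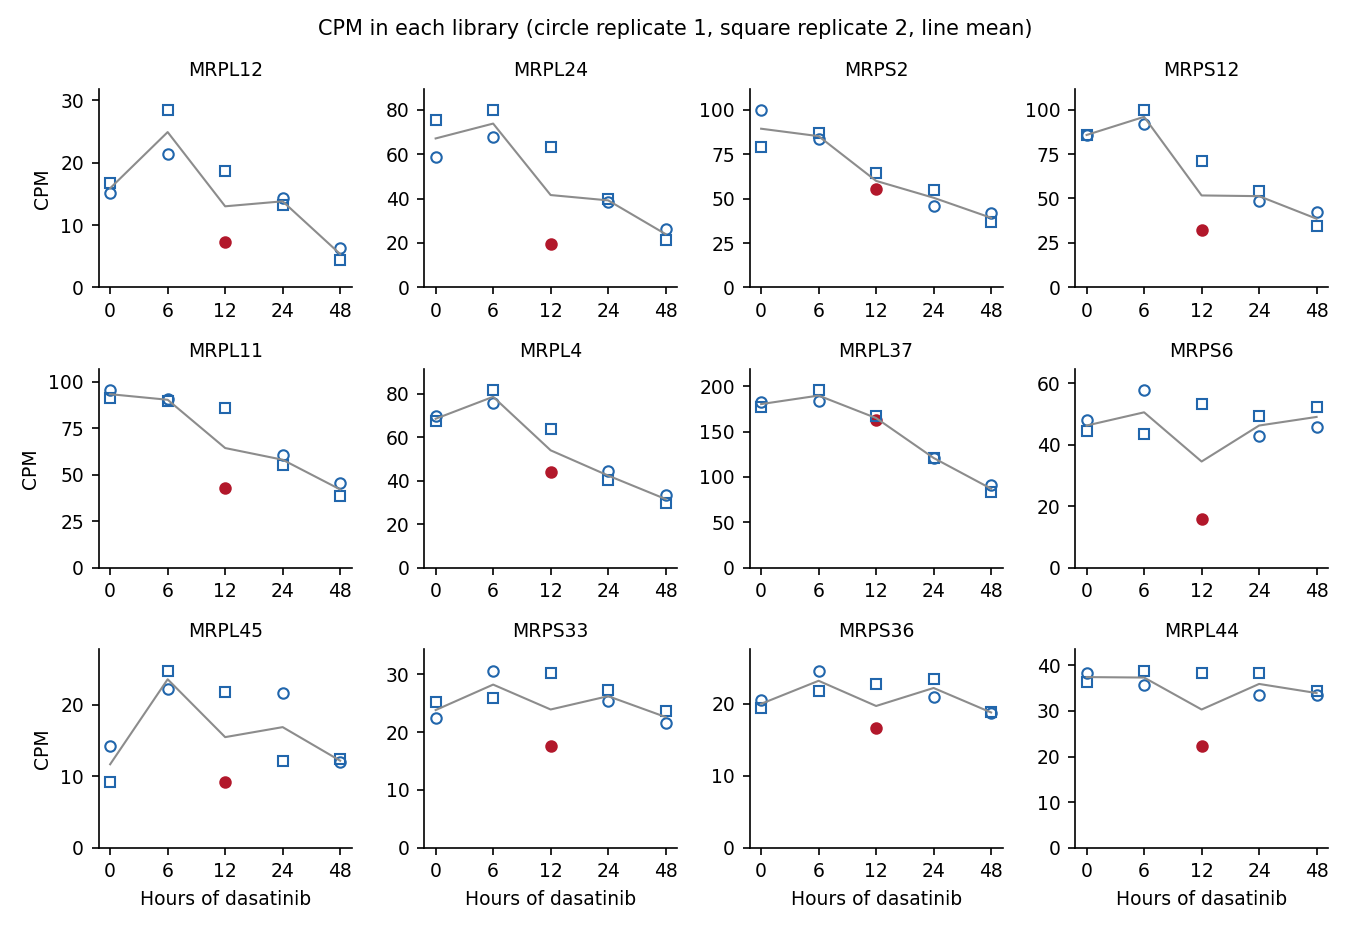
CPM (vertical axis, from 0) of 12 genes at 0, 6, 12, 24 and 48 h of dasatinib (horizontal axis); circles are replicate 1, squares replicate 2, the filled red circle is 12 h replicate 1 and the line joins the means. *MRPL37* had 90.9 and 83.1 CPM at 48 h, against 183.1 and 177.6 at 0 h, while *MRPS6* had 45.8 and 52.2 at 48 h, against 48.1 and 44.4 at 0 h.

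*MRPL37* encodes a protein of the large subunit that bacteria lack. Its CPM was 183.1 and 177.6 in the 0 h libraries, 184.1 and 195.3 after 6 h, 162.6 and 167.3 after 12 h, 120.8 and 121.0 after 24 h, and 90.9 and 83.1 after 48 h. The log2 fold change at 48 h against 0 h was -1.05 (SE 0.101, adjusted p = 5e-05, edgeR). At 12, 24 and 48 h alike, both libraries lay below both libraries of the time before. It was also the only gene of the 77 that was lower at 48 h than at 24 h with all 10 libraries.

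The 6 highest estimates at 48 h lay near 0, and none of these genes passed the test in either direction. *MRPS6* encodes a small subunit protein with a bacterial homolog, and *MRPL45* encodes a protein near the exit of the peptide tunnel. *MRPS6* had 45.8 and 52.2 CPM at 48 h, against 48.1 and 44.4 at 0 h, a log2 fold change of 0.08 (SE 0.406, adjusted p = 0.9, edgeR). *MRPL45* had 12.0 and 12.4 CPM at 48 h, against 14.3 and 9.22 at 0 h, a log2 fold change of 0.06 (SE 0.385, adjusted p = 0.932, edgeR). The groups of *MRPL45* overlapped, since both 48 h values fell between the 0 h values. *MRPS33* (-0.08), *MRPS36* (-0.09), *MRPL44* (-0.14) and *MRPL17* (-0.14) had log2 fold changes with SEs of 0.221, 0.166, 0.21 and 0.193. *MRPS36* is the gene whose product is now assigned to another complex. A p that misses the threshold does not show that these 6 genes kept their level.

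Without 12 h replicate 1, 13 of the 77 genes were still not lower at 48 h. They were *MRPL2*, *MRPL17*, *MRPL33*, *MRPL38*, *MRPL44*, *MRPL45*, *MRPL46*, *MRPS5*, *MRPS6*, *MRPS24*, *MRPS25*, *MRPS33* and *MRPS36*. Of these, *MRPS24*, *MRPL38*, *MRPL46* and *MRPL2* were also the least abundant of the 77.

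Abundance, compared between genes on the TPM scale, ran over a wide range. *MRPL41*, which encodes a mitochondria-specific protein of the large subunit, was the most abundant with a mean of 311.4 TPM over the 10 libraries, followed by *MRPL51* with 263.7 TPM and *MRPL37* with 205.4 TPM. *MRPL41* had 227.9 and 205.1 TPM at 48 h, against 344.9 and 312.0 TPM at 0 h, and in the count test fell to 37.7 and 32.5 CPM at 48 h, against 59.2 and 52.7 CPM at 0 h (log2 fold change -0.67, SE 0.212, adjusted p = 0.0343, edgeR). That call was lost in each of the 3 limma fits on TPM, at -0.599 to -0.601, and without any 1 library outside 12 h. *MRPL51* had 75.8 and 67.1 CPM at 48 h, against 97.3 and 128.8 CPM at 0 h, and did not pass (log2 fold change -0.66, SE 0.363, adjusted p = 0.194, edgeR) but was lower without 12 h replicate 1 (adjusted p = 4.82e-06).

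At the other end stood *MRPL53*, *MRPS24* and *MRPL38*. *MRPL53* (chr2:74471982-74472687, minus strand) had a count of 0 in all 10 libraries, which allows up to 3 counts, or 0.0597 to 0.0716 CPM per library, by counting error alone. Of its exon bases, 99.4% lie in other gene models, among them *CCDC142* on the same strand, which had 451 to 1038 counts. *MRPS24* had 7 to 30 counts per library and a mean of 0.643 TPM, and *MRPL38* had 68 to 168 counts and a mean of 3.03 TPM. Of the exon bases, 23.2% of *MRPS24* and 45.1% of *MRPL38* lie in other gene models. The way the counting treated reads of overlapping genes was not given in the sources used, and its part in these low values was not tested. At this depth no change was detectable for *MRPS24* (log2 fold change at 48 h -0.54, SE 0.776).

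At 6 h of dasatinib the median gene stood slightly above its 0 h level. The median log2 fold change was 0.09, and the estimate was above 0 in 52 of 77 genes and in 8059 of the 15727 genes tested. Both 6 h libraries lay above both 0 h libraries in 37 genes, against 29.3% of all genes tested. By edgeR 0 genes were lower and 0 higher, where 1.49% and 1.24% of all genes tested were. At an unadjusted p of 0.05, 0 were lower and 3 higher, and DESeq2 called 0 in either direction. Without 12 h replicate 1, 12 genes were higher, against 9.89% of all genes tested, and 1 gene (*MRPS14*) was lower, against 9.47%. The higher genes were *MRPL12*, *MRPL21*, *MRPL23*, *MRPL34*, *MRPL45*, *MRPL49*, *MRPL52*, *MRPL54*, *MRPS11*, *MRPS25*, *MRPS26* and *MRPS34*. The count of higher genes was also 12 with 12 h replicate 2 left out, against 9.68% of all genes tested.

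*MRPL12* had 21.4 and 28.4 CPM at 6 h, against 15.2 and 16.7 at 0 h, a log2 fold change of 0.65 (SE 0.353, adjusted p = 0.429, edgeR; 0.00367 without 12 h replicate 1). *MRPL45* had 22.3 and 24.8 CPM at 6 h, against 14.3 and 9.22 at 0 h, a log2 fold change of 1.01 (SE 0.385, adjusted p = 0.237, edgeR; 0.027 without 12 h replicate 1). In both genes the 6 h libraries lay above both 0 h libraries. *MRPS14*, a small subunit gene with a bacterial homolog, went the other way, with 25.8 and 22.5 CPM at 6 h, against 33.4 and 28.0 CPM at 0 h, a log2 fold change of -0.35 (SE 0.232, adjusted p = 0.537, edgeR; 0.0425 without 12 h replicate 1).

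The 12 h replicates gave different pictures of these genes. Log2 CPM in replicate 1 minus that in replicate 2 had a median of -0.73 over the 77 genes and was negative in 70 of them, while over all genes tested the median was -0.03. At 0, 6, 24 and 48 h the same median over the 77 genes lay between -0.02 and 0.05. Among the cytosolic ribosomal protein genes it was -0.80 at 12 h. Replicate 1 was the lowest of all 10 libraries in 34 of the 77 genes, and lay below every 0 h and 6 h library and below replicate 2 in 69. These 2 counts were not made over all genes tested. A gap below -0.5 at 12 h was found in 49 of the 77 genes and in 4317 of the 15727 genes tested. The median absolute gap at 12 h was 0.73 over the 77 genes and 0.469 over all genes tested.

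With both 12 h libraries, 2 genes were lower than at 0 h (*MRPL3* and *MRPS2*), against 3.22% of all genes tested, and 0 were higher, against 3.93%. At an unadjusted p of 0.05 the counts were 20 lower and 0 higher, and DESeq2 called 4 lower and 0 higher. With replicate 2 alone at 12 h, 6 genes were lower (*MRPL3*, *MRPL32*, *MRPS2*, *MRPS27*, *MRPS30* and *MRPS35*), against 8.61% of all genes tested, and 1 was higher (*MRPL52*), against 8.26%. With replicate 1 alone, 62 of 77 were lower, against 24.8% of all genes tested. The median log2 fold change was -0.34 with both, -0.07 with replicate 2 alone and -0.755 with replicate 1 alone. Without any 1 library outside 12 h, 0 genes were lower at 12 h. A lone library has no replicate check at its time.

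*MRPL3* and *MRPS2* are the genes lower at 12 h with both libraries and with replicate 2 alone. *MRPL3*, a large subunit protein that contacts the ribosomal RNA, had 128.5 and 119.7 CPM at 12 h, against 165.3 and 158.5 at 0 h, a log2 fold change of -0.38 (SE 0.0976, adjusted p = 0.0443, edgeR). *MRPS2* had 55.7 and 64.3 CPM at 12 h, against 99.8 and 79.0 CPM at 0 h, a log2 fold change of -0.58 (SE 0.15, adjusted p = 0.0476, edgeR). *MRPL52*, a mitochondria-specific protein of the large subunit, had 47.5 and 82.7 CPM at 12 h, against 62.8 and 68.5 at 0 h, so that its 12 h values lay on both sides of the 0 h values. Its call without 12 h replicate 1 had a log2 fold change of 0.34 and an adjusted p of 0.0208 by edgeR.

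The gap at 12 h was not of 1 size. It was largest for *MRPL55* (-1.90), a large subunit gene with 7.47 and 27.9 CPM at 12 h, *MRPS6* (-1.75) with 15.8 and 53.2 CPM, and *MRPL24* (-1.68) with 19.7 and 63.4 CPM. It was smallest for *MRPS22*, with 42.1 and 41.8 CPM, *MRPL37*, with 162.6 and 167.3 CPM, and *MRPS10*, with 104.1 and 100 CPM. The gap was less negative in longer transcripts, with a Spearman coefficient of 0.27 across the 77 genes and 0.36 across all genes tested, and more negative at higher GC content, with coefficients of -0.42 and -0.29. The log2 fold change at 48 h against 0 h had a coefficient with length of 0.30 across the 77 genes and 0.14 across all genes tested. With GC content its coefficients were -0.35 and 0.04. These are descriptions across genes of the same libraries, with no test. The 77 genes were shorter than most, with a median of 2549 bases against 4892 over all genes tested. The share of counts from the 13 protein-coding genes of mitochondrial DNA was 7.94% in 12 h replicate 1, against 4.91 to 7.24% in the other libraries. The part of these properties in the gap was not tested.

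**Figure D4:**
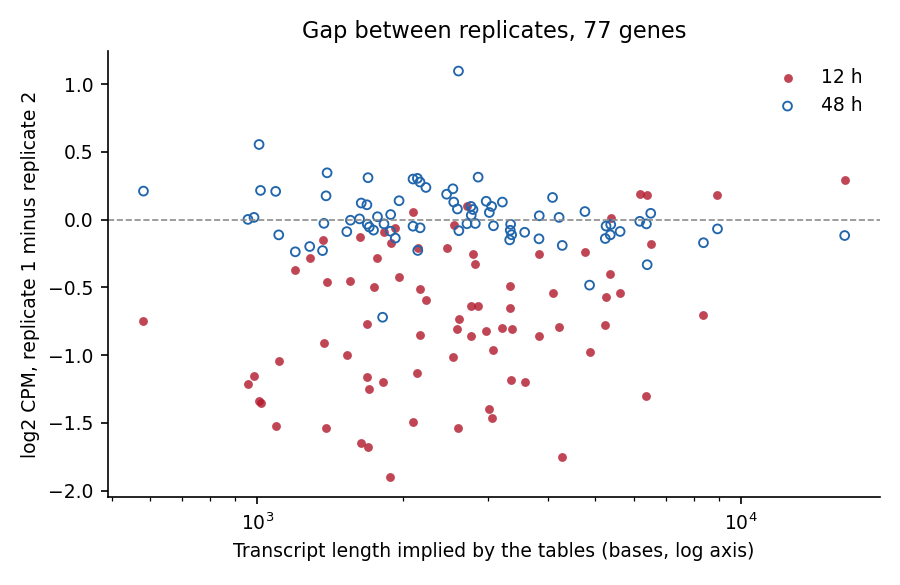
Log2 CPM of replicate 1 minus replicate 2 (vertical axis) against the transcript length implied by the deposited counts and TPM (horizontal axis, bases, log scale) for the 77 genes, at 12 h (filled) and 48 h (open). The 12 h gaps have a median of -0.73 and run from -1.90 to 0.29, while the 48 h gaps have a median of -0.01.

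At 24 h of dasatinib, 15 of 77 genes were lower than at 0 h, against 10.2% of all genes tested, and 0 were higher, against 9.73%. The 15 were *MRPL1*, *MRPL3*, *MRPL4*, *MRPL9*, *MRPL15*, *MRPL19*, *MRPL21*, *MRPL30*, *MRPL35*, *MRPL37*, *MRPL39*, *MRPL47*, *MRPS2*, *MRPS27* and *MRPS35*, and all 15 were also lower at 48 h. The comparisons at 24 and 48 h share the 0 h libraries in every fit, so such overlaps are not independent. The median log2 fold change was -0.31, and both 24 h libraries lay below both 0 h libraries in 58 genes, against 34.0% of all genes tested. At an unadjusted p of 0.05, 29 were lower and 0 higher, and DESeq2 called 20 lower and 0 higher. Without 12 h replicate 1, 42 genes were lower, against 20.8% of all genes tested, and 1 (*MRPL34*) was higher, against 19.5%. In that fit 40 genes were lower at both 24 and 48 h. Leaving out a 0 h or a 24 h library brought the count to between 3 and 5: 3 without 0 h replicate 1, 5 without 0 h replicate 2 and 3 without either 24 h replicate. It was also 42 with 12 h replicate 2 left out, against 20.4% of all genes tested.

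The lowest estimates at 24 h were those of *MRPS2*, *MRPL24* and *MRPS12*. *MRPS2* had 46.0 and 54.9 CPM at 24 h, against 99.8 and 79.0 CPM at 0 h (log2 fold change -0.83, SE 0.151, adjusted p = 0.00405, edgeR). *MRPL24* and *MRPS12* did not pass with all libraries (log2 fold changes -0.78 and -0.74, adjusted p = 0.21 and 0.0926, edgeR) and were lower without 12 h replicate 1 (adjusted p = 8.03e-06 and 2.61e-07). The highest estimates were those of *MRPL45* (0.53, SE 0.384), *MRPL34* (0.28, SE 0.287) and *MRPS36* (0.15, SE 0.166), none of which passed with all libraries. *MRPL34*, a large subunit gene with a bacterial homolog, had 47.4 and 53.7 CPM at 24 h, against 37.0 and 46.2 at 0 h, and was higher at 24 h without 12 h replicate 1 (adjusted p = 0.0295, edgeR). At 48 h it had 32.5 and 30.1 CPM, below both 0 h libraries.

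**Figure D5:**
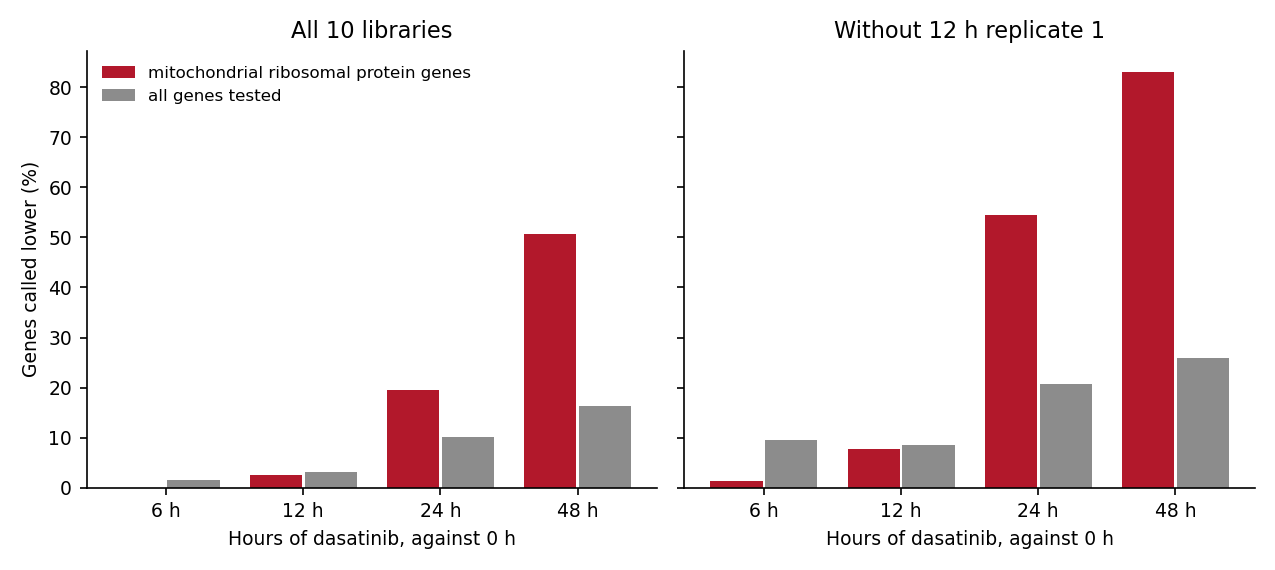
Percent of genes lower than at 0 h (vertical axis) at 6, 12, 24 and 48 h of dasatinib (horizontal axis) for the mitochondrial ribosomal protein genes (red) and all genes tested (grey), with all 10 libraries (left) and without 12 h replicate 1 (right). At 48 h the shares with all libraries are 50.6% of the 77 genes and 16.3% of all genes tested.

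Comparing treated times with each other leaves the 0 h libraries out of the contrast. At 48 h, 45 of 77 genes were lower than at 6 h, against 17.0% of all genes tested, and 0 were higher, against 16.2%. All 77 estimates were below 0, with a median of -0.71, while 7774 of the 15727 genes tested were below 0. At an unadjusted p of 0.05, 56 were lower and 0 higher, and DESeq2 called 48 lower and 0 higher. Of the 45 genes, 36 were also lower at 48 h than at 0 h, a comparison that shares the 48 h libraries. Without 12 h replicate 1, 71 genes were lower, against 26.2% of all genes tested, and 71 without 12 h replicate 2, against 25.7%. The count was 20 without 48 h replicate 2, 27 without 48 h replicate 1, and 29 without 6 h replicate 2. *MRPL12* had the largest estimate, with 6.37 and 4.33 CPM at 48 h, against 21.4 and 28.4 at 6 h (log2 fold change -2.22, SE 0.372, adjusted p = 0.00132, edgeR).

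Between 24 and 48 h, 1 gene was lower at 48 h with all libraries (*MRPL37*, log2 fold change -0.47, SE 0.101, adjusted p = 0.0334, edgeR), against 1.28% of all genes tested, and 0 were higher, against 1.89%. At an unadjusted p of 0.05, 19 were lower and 0 higher, and DESeq2 called 2 lower and 0 higher. Without 12 h replicate 1, 37 genes were lower, against 11.3% of all genes tested, and 36 without 12 h replicate 2, against 11.0%. The *MRPL37* call was lost, and the count 0, without any 1 library outside 12 h. The median log2 fold change was -0.28 over the 77 genes and -0.01 over all genes tested. The estimate at 48 h against 24 h was below 0 in 72 of the 77 genes and in 7959 of the 15727 genes tested. By group means, 69 of 77 genes were ordered 48 h below 24 h below 6 h, and 61 had their lowest mean at 48 h (71 with 12 h replicate 2 alone at 12 h). These orders of means were not counted over all genes tested.

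Grouped by subunit, 26 of 50 genes of the large subunit and 13 of 26 of the small subunit were lower at 48 h than at 0 h, with median log2 fold changes of -0.61 and -0.59, against 16.3% of all genes tested. Of the homologs of bacterial proteins, 27 of 46 were lower, with a median of -0.64, and of the mitochondria-specific proteins 12 of 30, with a median of -0.49. These 2 classes were not tested against each other. The counts at 48 h without 12 h replicate 1 were 43 of 50 and 21 of 26 by subunit, and 40 of 46 and 24 of 30 by class, against 26.0% of all genes tested. At 24 h 11 of 46 and 4 of 30 were lower by class with all libraries, against 10.2% of all genes tested, and 28 of 46 and 14 of 30 without 12 h replicate 1, against 20.8%. The estimates at 48 h ran from -1.57 to 0.08 in the bacterial-type class and from -1.05 to 0.06 in the mitochondria-specific class.

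The *MRPS18* genes are 3 paralogs of 1 bacterial gene whose products sit at different places of the ribosome. In the counts by class, *MRPS18A* and *MRPS18B* were nevertheless placed with the mitochondria-specific proteins, and only *MRPS18C* with the homologs of bacterial proteins. *MRPS18B* had 22.5 and 22 CPM at 48 h, against 36.6 and 38.6 at 0 h, and was lower (log2 fold change -0.76, SE 0.127, adjusted p = 0.0013, edgeR). *MRPS18A* had 11.7 and 13.4 CPM at 48 h, against 17.7 and 15.6 at 0 h (log2 fold change -0.41, SE 0.168, adjusted p = 0.0923, edgeR). *MRPS18C* had 7.15 and 10 CPM at 48 h, against 13.0 and 12.8 at 0 h (log2 fold change -0.59, SE 0.281, adjusted p = 0.138, edgeR). In all 3 genes both 48 h libraries lay below both 0 h libraries, and without 12 h replicate 1 all 3 passed, with adjusted p-values of 0.0173 for *MRPS18A*, 5.14e-07 for *MRPS18B* and 0.00307 for *MRPS18C*. Whether the paralogs differ from each other was not tested.

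Other genes of the same machinery were counted by list, and each count at 48 h stands beside 16.3% of all genes tested (26.0% without 12 h replicate 1). Of 5 mitochondrial ribosome subunits with other symbols, 3 were lower at 48 h than at 0 h, with a median log2 fold change of -0.81, and 5 were lower without 12 h replicate 1. *GADD45GIP1*, a large subunit protein, had 72.3 and 62.1 CPM at 48 h, against 158.8 and 143.1 at 0 h (log2 fold change -1.17, SE 0.116, adjusted p = 5.84e-05, edgeR), and *AURKAIP1*, a small subunit protein, had 56.1 and 47.5 CPM, against 105.6 and 117.4 (-1.11, SE 0.303, adjusted p = 0.0187). Of 28 assembly factors 16 were lower, with a median of -0.46, among them the ribosomal RNA methyltransferase *MRM3* (-1.19, adjusted p = 9.59e-05) and the helicase *DHX30* (-0.71, adjusted p = 0.00049).

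Of 18 mitochondrial translation factors 8 were lower (median -0.39), among them the ribosome recycling factor *MRRF* (-0.64, adjusted p = 0.00218, edgeR) and the initiation factor *MTIF2* (-0.64, adjusted p = 0.00221). Of 19 mitochondrial aminoacyl-tRNA synthetases 9 were lower (14 without 12 h replicate 1; median -0.35), among them *CARS2* (-0.99, adjusted p = 0.000153) and *MARS2* (-1.08, adjusted p = 0.000349). Of 18 genes of mitochondrial transcription and mtDNA upkeep 9 were lower (median -0.55), among them the tRNA-processing nuclease *ELAC2* (-0.79, adjusted p = 0.000207) and the mtDNA packaging factor *TFAM* (-0.70, adjusted p = 0.0013). Of 29 import genes 19 were lower (median -0.68), among them *TIMM50* (-1.25, adjusted p = 2.03e-05) and *TOMM22* (-1.11, adjusted p = 5.13e-05).

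Of the 13 protein-coding genes of mitochondrial DNA, 1 was lower and 2 were higher at 48 h than at 0 h, against 16.3% and 16.0% of all genes tested, with a median log2 fold change of 0.27. Leaving out 12 h replicate 1 gave 1 lower and 6 higher, against 26.0% and 24.5%. *ND2* had 4605 and 4418 CPM at 48 h, against 6855 and 6308 at 0 h (-0.54, SE 0.151, adjusted p = 0.0196, edgeR). *COX2* had 8035 and 7585 CPM at 48 h, against 4158 and 3549 at 0 h (1.02, SE 0.162, adjusted p = 0.000956, edgeR), and *ND6*, the only one encoded on the other strand of mitochondrial DNA, had 882.1 and 866.5 CPM, against 325.6 and 339.1 (1.40, SE 0.384, adjusted p = 0.0191, edgeR). The sources used here do not give the strand setting of the counting, so reads of *ND6* and of the strand opposite to it cannot be told apart.

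The cytosolic ribosomal protein genes, from which the mitochondrial ones are separate, had 19 of 80 genes lower at 48 h than at 0 h, against 16.3% of all genes tested, and a median log2 fold change of -0.37. At 6 h their median was 0.16, and at 24 h 1 was lower and 1 higher, against 10.2% and 9.73% of all genes tested. When 12 h replicate 1 was left out, 62 were lower at 48 h, against 26.0% of all genes tested, and at 24 h 30 were lower and 5 higher, against 20.8% and 19.5%. The sets were not tested against each other.

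Among 9 regulators of mitochondrial biogenesis, 5 were lower at 48 h than at 0 h and 1 was higher, against 16.3% and 16.0% of all genes tested. The coactivator *PPRC1* had 85.6 and 87.6 CPM at 48 h, against 149.4 and 151.4 at 0 h (log2 fold change -0.80, SE 0.102, adjusted p = 0.000256, edgeR). *GABPB1*, a subunit of an ETS-family activator of nuclear mitochondrial genes, had 25.7 and 28.3 CPM, against 47.8 and 48.6 (-0.84, SE 0.122, adjusted p = 0.000558), and *MYC* had 68.9 and 68.6 CPM, against 127.9 and 129.1 (-0.90, SE 0.192, adjusted p = 0.00517). *NRF1* (-0.44, adjusted p = 0.0335) and *PPARGC1B* (-0.54, adjusted p = 0.0399) were also lower. *PPARGC1A*, the coactivator PGC-1 alpha, had 11.7 and 13.9 CPM at 48 h, against 3.8 and 5.28 at 0 h, and was higher (1.5, SE 0.371, adjusted p = 0.0116, edgeR). *GABPA* (0.07, adjusted p = 0.815), *ESRRA* (-0.06, adjusted p = 0.83) and *YY1* (-0.15, adjusted p = 0.377) did not pass.

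Promoters of these genes often hold binding motifs of ETS factors, NRF1 and YY1, and the letters of these motifs were counted in RefSeq promoters of the GRCh38.p14 build, 250 bases before to 50 bases from the first listed start of each gene, on both strands. Of the 78 genes 69 had such a promoter. The ETS core CCGGAAG was in 29 of the 69 (42.0%) and in 10.7% of 27305 promoters. The YY1 core AAGATGGCG was in 18.8% against 1.85%, the NRF1 core GCGCANGCG in 18.8% against 8.05%, and the E-box CACGTG in 8.70% against 7.43%. None of these motifs contains another. By the fit of all libraries, the ETS core was in 9 of 36 promoters (25%) of genes lower at 48 h. Among the others of these genes that were tested, it was in 19 of 32 (59.4%). The NRF1 core was in 22.2% against 15.6%, the YY1 core in 16.7% against 21.9% and the E-box in 8.33% against 9.38%. This split depends on the fit, since 39 genes were lower with all libraries and 64 without 12 h replicate 1. It is given for the fit of all libraries alone and is a description with no test.

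Of the 6 genes with the lowest estimates at 48 h only *MRPS12* held a motif, an ETS core that runs across its start. *MRPS10* and *MRPS22*, among the genes with the smallest 12 h gap, and *MRPL17*, among the highest estimates at 48 h, are shown beside it and were picked with their values known. The windows run from 100 bases before to 20 bases from the start, 5′ to 3′ on the strand of the gene, with motif letters of either strand in capitals; they lie at chr19:38930844-38930963 (plus strand), chr6:42217842-42217961 (minus), chr3:139343894-139344013 (plus) and chr11:6683321-6683440 (minus).
MRPS12: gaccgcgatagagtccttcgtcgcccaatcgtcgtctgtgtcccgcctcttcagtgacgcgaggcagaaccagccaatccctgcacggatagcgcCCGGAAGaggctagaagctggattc
MRPS10: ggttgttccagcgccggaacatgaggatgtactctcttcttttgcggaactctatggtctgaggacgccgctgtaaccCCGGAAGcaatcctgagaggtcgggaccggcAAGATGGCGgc
MRPS22: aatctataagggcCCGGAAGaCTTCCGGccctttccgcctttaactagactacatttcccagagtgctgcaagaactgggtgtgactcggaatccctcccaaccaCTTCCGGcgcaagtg
MRPL17: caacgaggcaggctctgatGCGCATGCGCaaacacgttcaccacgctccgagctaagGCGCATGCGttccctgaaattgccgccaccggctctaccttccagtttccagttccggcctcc
The ETS core of *MRPS12* begins 5 bases before the start and runs across it. That of *MRPS10*, which also holds a YY1 core after its start, begins 22 bases before the start. *MRPS22* holds 3 ETS cores, 2 of them on the opposite strand, and the first capital run of *MRPL17* holds 2 overlapping NRF1 cores, 1 on each strand. At 48 h *MRPS12* fell by 1.15 on the log2 scale and *MRPS22* by 0.39 (SE 0.107, adjusted p = 0.0194, edgeR; the call was lost without any 1 library of 0 or 48 h), while *MRPS10* (-0.25, adjusted p = 0.0872) and *MRPL17* (-0.14, adjusted p = 0.615) did not pass. A match of letters is not a bound site, and no binding was measured here.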

How the data were processed

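RNA-seq reads of MDA-MB-231 cells were processed by the authors. Per the methods and the submitters' processing notes they were checked with FastQC and MultiQC, trimmed with Trim Galore, aligned to hg38 with STAR 2.5.2b and counted with featureCounts, and the authors deposited gene counts and TPM values, each with 1 column per library. The gene annotation, strand setting, treatment of shared reads and the step from counts to TPM are not given in the sources used here. The 10 libraries held 40942913 to 49133774 gene counts, which limits the precision of rarely counted genes. Counts were tested in R 4.3.3 with edgeR 4.0.16 in 1 fit of 5 group means (filterByExpr, 15727 genes kept, TMM, robust quasi-likelihood test). Adjusted p-values (Benjamini-Hochberg) cover all genes tested in a comparison, and the threshold is 0.05. The SE is the log2 fold change divided by the square root of F. The fit was also run on simulated counts, with dispersions estimated from these 10 libraries and changes at 48 h alone. No simulated library stood apart as 12 h replicate 1 does, so that run cannot show how the fit handles such a library.

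The alternatives were no filter, DESeq2-type size factors, DESeq2 1.42.0, the replicate number as a block, the 2 groups alone, limma 3.58.1 on log2(TPM + 1) and log2(TPM + 0.1) with at least 1 TPM in 2 libraries or no filter, subtraction of a loess trend on length per library (span 0.3), and each library left out in turn. Removal of the trend with length and GC content, and the reading of each 12 h library alone, were added after the data were seen. Lengths were implied by the ratio of counts to TPM, and coordinates, overlaps and GC content come from GENCODE v44, which may differ from the annotation of the authors. The genes and lists were chosen with earlier results of these data known, so no test of the set is given. Genes were named by rule: the 6 lowest and 6 highest fold changes at 48 h, the 3 lowest and 3 highest at 24 h, genes called against the direction of most, the 3 largest and 3 smallest 12 h gaps, the 3 most and 3 least abundant, the *MRPS18* paralogs, genes that failed the filter, up to 2 genes per direction of the other lists and all 9 regulators. The mitochondrially encoded mRNAs are named as in the tables. Genes outside this rule (*MRPL3* and *MRPL37* at other times, *CCDC142*, *SLC25A10* and those in lists of calls) were named after their values were seen.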

Additional observations from a re-analysis of the deposited data

Results flagged for a closer look

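The change from 6 h to 48 h of dasatinib was the 1 pattern that met a rule for a closer look, since the effects of these times, both measured against the same 0 h libraries, differed by a test of the difference itself. At 48 h 45 of 77 mitochondrial ribosomal protein genes were lower than at 6 h by edgeR, against 17.0% of all genes tested. The median log2 fold change of the 77 genes was -0.71 with all 10 libraries and -0.71 without 12 h replicate 1.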

How the results depend on the processing

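All counts are of the 77 genes lower than at 0 h unless said otherwise, and medians are of their log2 fold changes. The cause of each move was not tested. Apart from the fits without a 12 h library, shares of all genes tested were not counted for these settings. A move in these genes therefore cannot be told apart from a change in the general rate of calls. With no filter, 2 were higher at 6 h, and 15 were lower at 12 h, 24 at 24 h and 11 at 48 h against 24 h. With DESeq2-type size factors 0 were lower at 12 h, and with DESeq2 4, with 2 lower at 48 h against 24 h. With the 2 groups alone, 11 were higher at 6 h, 0 lower at 12 h, 41 lower and 1 higher at 24 h, 64 lower at 48 h, 71 against 6 h and 37 against 24 h. The replicate numbers did not pair the samples, as the correlations of replicate differences between times lay between -0.0346 and 0.0924. With the replicate block 43 were lower at 48 h and 13 at 24 h, with 0 at 12 h and 0 at 48 h against 24 h. By limma on log2(TPM + 1), 10 were lower at 24 h, 30 at 48 h and 39 at 48 h against 6 h. That fit gave 0 at 12 h and medians of -0.21 at 24 h, -0.515 at 48 h and -0.599 against 6 h. With log2(TPM + 0.1) these were 0, -0.24, -0.528 and -0.606. With no filter on TPM they were 0, -0.206, -0.509 and -0.586, with 9 lower at 24 h and 25 at 48 h. With the length trend removed 26 were lower at 24 h, and medians were 0.0332 at 6 h, -0.359 at 24 h, -0.486 at 48 h, -0.54 against 6 h and -0.19 against 24 h. With the length and GC trends removed, 4 were lower at 12 h and 27 at 24 h, and medians were 0.0173, -0.341, -0.496, -0.513 and -0.178. Of the 39 genes lower at 48 h, 34 remained so in that fit.

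With each library left out in turn, the count of lower genes lay between 0 and 1 at 6 h, between 0 and 62 at 12 h, between 3 and 42 at 24 h and between 18 and 64 at 48 h. For 48 h it lay between 20 and 71 against 6 h and between 0 and 37 against 24 h. The count of higher genes lay between 0 and 12 at 6 h, and between 0 and 1 at 12 h and at 24 h. Medians lay between 0.0657 and 0.0941 at 6 h, between -0.755 and -0.0724 at 12 h, between -0.369 and -0.28 at 24 h, between -0.614 and -0.583 at 48 h, between -0.748 and -0.655 against 6 h and between -0.357 and -0.257 against 24 h. Reversed estimates at 48 h, none of a called gene, were *MRPL17* (0.00932), *MRPL44* (0.084) and *MRPS36* (0.204) with length and GC trends removed, *MRPL44* (0.0637) and *MRPS36* (0.12) with the length trend removed, and *MRPS33* (from -0.158 to 0.00278 over the libraries left out, the last without 0 h replicate 2), *MRPL45* (from -0.231, without 0 h replicate 2, to 0.402) and *MRPS6* (from -0.0158, without 48 h replicate 2, to 0.173).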
